A study of Caenorhabditis elegans with 2 samples.

Results

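The numbered cuticle collagen genes of Caenorhabditis elegans, those whose symbol is col- followed by a number, were examined for promoter binding by the GATA-type transcription factor ELT-1 in embryos. The rule used the symbol alone: 156 of the 19985 protein-coding genes of the Ensembl release 115 annotation met it, and 19829 did not. Binding was read from ChIP-seq peak lists made from mixed-stage embryos of hermaphrodite strain OP354, in 1 group of 2 biological replicates with no contrasting group. The strain has the genotype unc-119(tm4063) III; wgIs354, and its integrated transgene makes ELT-1 with GFP and FLAG at the C terminus. The descriptions give an antibody against GFP and the antibody field gives elt-1. The labels do not say what drives the transgene. Whole embryos of all stages were pooled, so strong binding in few cells and weak binding in many cannot be told apart. Nothing in the sources used here gives the read depth.

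Cuticle collagens are small secreted proteins with interrupted Gly-X-Y repeats that trimerise and are crosslinked into the extracellular cuticle of the worm. The epidermis makes them in waves, before hatching for the first larval cuticle and again before each moult, and the set in use differs between stages. ELT-1 is the GATA factor that specifies the epidermis in the embryo. GATA factors bind short sites built on the letters GATA. One gene that the rule brings in, col-99, encodes a membrane-spanning collagen related to vertebrate type XIII collagen and is not a cuticle collagen, so the symbol is a wider class than the cuticle family.

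The submitters deposited 2 kinds of list on genome build ce11. The list thresholded with the irreproducible discovery rate (IDR) held 1400 peaks, and the relaxed lists, which by their name also hold background, held 30000 peaks for the pooled replicates, 30000 for replicate 1 and 26001 for replicate 2. Each peak carries a signal, which is the submitters' value and was used only to rank peaks within a list. A gene was counted as occupied when an IDR summit fell in its promoter window, set here as the 1000 bp before and the 200 bp after any annotated transcript 5′ end. By this rule 8 of 156 numbered col genes were occupied, through 7 peaks: col-107, col-121, col-40, the neighbours col-117 and col-3, col-174, col-62 and col-76.

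The bound sequences are shown for 6 of the occupied members, since these stretches carry the finding. Each runs 5′ to 3′ on the strand of the gene, with 100 bp on each side of the IDR summit. Capitals mark the GATA sites searched for on either strand, the forms AGATAA and AGATAG with the forms TGATAA and TGATAG, none of which can contain another. The stretches of col-62 and col-76 are not shown. col-117 and col-3 share 1 stretch, written on the strand of col-117.
col-107, chrIV:1548493-1548693, plus strand: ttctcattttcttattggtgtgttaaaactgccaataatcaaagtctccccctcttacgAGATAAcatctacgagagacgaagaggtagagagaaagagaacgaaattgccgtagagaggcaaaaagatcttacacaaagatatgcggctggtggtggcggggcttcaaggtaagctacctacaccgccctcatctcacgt
col-121, chrIV:9396338-9396538, minus strand: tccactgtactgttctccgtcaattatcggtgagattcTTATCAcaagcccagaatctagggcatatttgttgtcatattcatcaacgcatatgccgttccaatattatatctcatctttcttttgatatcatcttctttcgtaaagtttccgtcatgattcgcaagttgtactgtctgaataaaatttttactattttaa
col-40, chrII:1107058-1107258, minus strand: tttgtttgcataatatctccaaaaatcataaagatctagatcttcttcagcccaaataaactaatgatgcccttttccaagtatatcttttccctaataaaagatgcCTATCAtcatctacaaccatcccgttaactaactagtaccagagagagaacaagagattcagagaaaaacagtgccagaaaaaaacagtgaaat
col-117 and col-3, chrIV:8824379-8824579, minus strand: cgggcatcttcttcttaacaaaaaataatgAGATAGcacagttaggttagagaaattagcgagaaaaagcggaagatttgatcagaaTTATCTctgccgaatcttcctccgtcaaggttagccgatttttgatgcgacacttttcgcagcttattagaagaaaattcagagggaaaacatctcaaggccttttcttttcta
col-174, chrX:7546395-7546595, plus strand: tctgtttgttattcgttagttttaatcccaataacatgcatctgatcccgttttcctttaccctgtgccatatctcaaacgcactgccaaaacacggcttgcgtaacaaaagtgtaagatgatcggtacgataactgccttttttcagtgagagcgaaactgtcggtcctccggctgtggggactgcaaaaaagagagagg

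The capitals show that the bound stretches are not built alike. The stretch at col-107 holds 1 AGATAA, 39 bp before the summit, counted to the third base of the site, and that at col-121 holds TGATAA on the opposite strand, 60 bp before it. At col-40, TGATAG lies on the opposite strand 9 bp after the summit. The shared stretch of col-117 and col-3 holds AGATAG 68 bp and AGATAA, on the opposite strand, 11 bp before the summit. No capital appears at col-174, although CGATAA, a related form outside the 4, occurs there once, as it does at col-121. The sequences were read from the RefSeq genome of assembly WBcel235, which has the ce11 coordinates.

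Signals and ranks put the occupied members in 2 tiers. The peak upstream of col-107 (WBGene00000681; chromosome IV, 1548541 to 1548694) had a signal of 75.1 and rank 169 of 1400 in the IDR list, with signals of 44.5 in replicate 1 (rank 215) and 32.4 in replicate 2 (rank 123). Its summit lay in an intron of C34H4.5, a gene on the opposite strand that surrounds col-107. The peak of col-121 (WBGene00000695; IV, 9396396 to 9396528, intergenic) had a signal of 74.9 and rank 172, with 61.5 in replicate 1 (rank 96) and 21.0 in replicate 2 (rank 326). Both were therefore among the strongest 500 peaks of the IDR list and of each replicate's relaxed list.

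The peak of col-40 (WBGene00000617; II, 1106983 to 1107332, intergenic) had a signal of 63.0 and rank 245, with 37.2 in replicate 1 (rank 330) and 27.5 in replicate 2 (rank 189). The peak between col-117 (WBGene00000691) and col-3 (WBGene00000594; IV, 8824304 to 8824653, intergenic) had a signal of 57.5 and rank 313, with 30.9 in replicate 1 (rank 499) and 20.5 in replicate 2 (rank 340). These first 5 genes form the upper tier, and no numbered col gene had a strongest signal between 57.5 and 30.1.

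The lower tier lay near the bottom of the IDR list, whose lowest signal was 27.82. The peak of col-174 (WBGene00000747; X, 7546320 to 7546669, intergenic) had a signal of 30.1 and rank 1205, with 24.4 in replicate 1 (rank 834) and 14.4 in replicate 2 (rank 753). The peak of col-62 (WBGene00000638; I, 7404694 to 7405043, intergenic) had a signal of 29.4 and rank 1279, with 20.9 in replicate 1 (rank 1144) and 6.56 in replicate 2 (rank 3981). In replicate 2 it therefore stood outside the strongest 1400. The peak of col-76 (WBGene00000652; II, 8203878 to 8204227, intergenic) had a signal of 29.3 and rank 1283, with 17.2 in replicate 1 (rank 1625) and 13.5 in replicate 2 (rank 850). Here replicate 1 was the list in which the peak missed the strongest 1400.

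**Figure D1:**
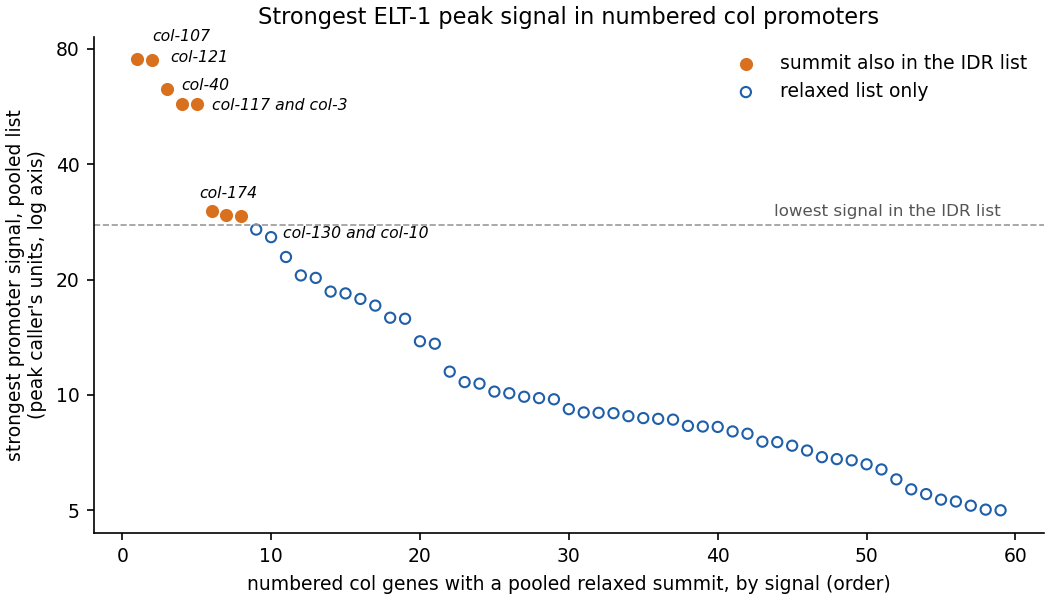
Strongest signal in the promoter window of each of the 59 numbered col genes with a summit in the pooled relaxed list (vertical axis, peak caller's units, log scale), ordered by signal (horizontal axis). Filled points are the 8 genes whose summit is also in the IDR list, 5 of them at 57.5 or more and 3 between 29.3 and 30.1, and open points are the 51 others, which run from 27.0 down to 5.00.

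Below the IDR list the signals went on without a gap. The next gene, col-130, had a pooled signal of 27.0 (rank 1485; IV, 12428633 to 12428982, in an intron). Replicate 1 gave it 18.7 (rank 1408) and replicate 2 only 4.34 (rank 9511), so the replicates ranked it far apart. col-10, whose promoter is used to drive transgenes in the epidermis, followed with 25.8 (rank 1609; V, 9165366 to 9165715, intergenic). Its signals were 12.9 in replicate 1 (rank 2769) and 10.3 in replicate 2 (rank 1496), and 1 GATA site lay within 100 bp of its summit.

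col-77 had a pooled signal of 22.9, col-185 one of 20.5 and col-2 one of 20.2. col-172, col-110, col-63 and col-166 lay between 18.6 and 17.1, and col-47, col-65 and col-38 between 15.9 and 13.8. Of these 12 genes from col-130 to col-38, 11 had a promoter summit in the relaxed list of each replicate, the exception being col-47 in replicate 2. A GATA site lay within 100 bp of the pooled summit in 7 of the 12, and 10 of the 12 summits fell within 500 bp upstream of a 5′ end. For other genes whose strongest pooled summit ranked after the first 1400 and within the first 5000, as these 12 did, the shares were 41.5% with a GATA site and 63.9% within 500 bp upstream.

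The remaining 39 genes with a pooled relaxed summit had signals from 5.00 to 13.6, with a median of 8.25. The other 97 members had no pooled summit in the window. Of these, 25 had a summit in at least 1 replicate's relaxed list, and col-45, col-119, col-150 and col-156 had one in both. For 72 members no relaxed list held a summit. Among them was col-12, another gene whose promoter drives epidermal transgenes. col-19, the usual marker of the adult cuticle, had no pooled summit, none in replicate 1 and a weak one in replicate 2 (signal 3.40, rank 14282).

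The replicates were set side by side for the 31 members with a promoter summit in both relaxed lists. Spearman's rho of their strongest signals was 0.624, against 0.465 over 4523 other protein-coding genes. Without the occupied genes it was 0.168 over 23 members and 0.225 over 3823 other genes. The strongest 1400 pooled relaxed peaks gave the same counts of genes as the IDR list, 8 members and 714 others. Leaving the IDR genes out thus takes out the strongest pooled signals, so the values with and without them cover different ranges. A high rank in both replicates was not needed, since the col-62 peak ranked 3981 in replicate 2. Among the 8 occupied members, col-117 and col-3 are 1 point. Genes are not replicates, the points share their 2 libraries, and the values are a description.

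**Figure D2:**
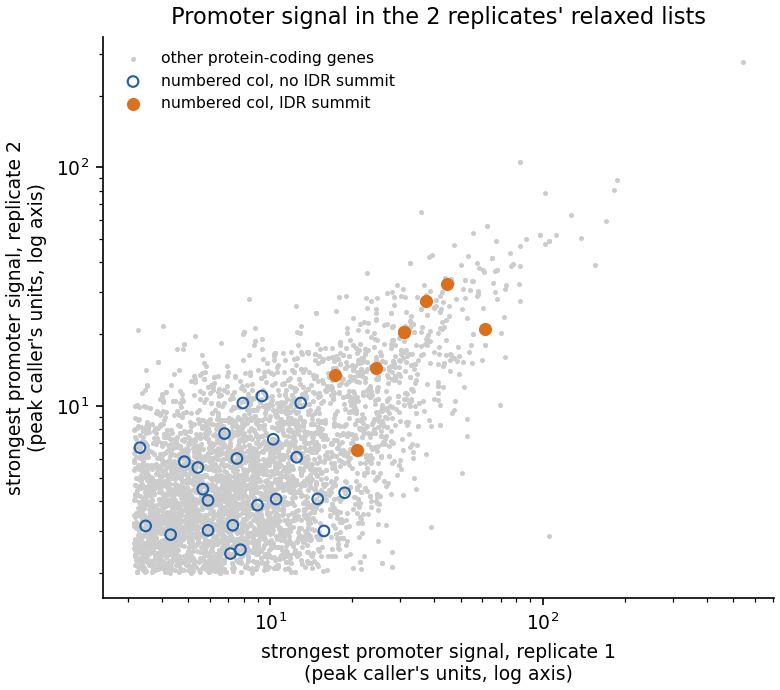
Strongest promoter signal in the relaxed list of replicate 1 (horizontal) and of replicate 2 (vertical), both in the peak caller's units on log axes, for genes with a summit in both. Filled points are the 8 occupied numbered col genes (col-117 and col-3 coincide), open points the 23 other numbered col genes, and small grey points the 4523 other protein-coding genes. The filled points lie to the upper right of most open ones, except col-62, whose replicate 2 signal is 6.56.

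The occupied members resembled one another in where the peak lay. All 8 summits were upstream, at −495 to −128 bp from the 5′ end, with a median of −285 bp. All 8 thus lay within 500 bp upstream, against 444 of 714 occupied other genes (62.2%), whose median was −284 bp. The 8 positions come from 7 peaks, since col-117 and col-3 share 1. Among other genes 63 (8.82%) had the strongest summit downstream of the 5′ end. The 51 relaxed-only summits were more scattered, with 25 within 500 bp upstream, 20 further upstream and 6 downstream. Many worm transcripts are trans-spliced, so an annotated 5′ end can lie downstream of the true start.

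**Figure D3:**
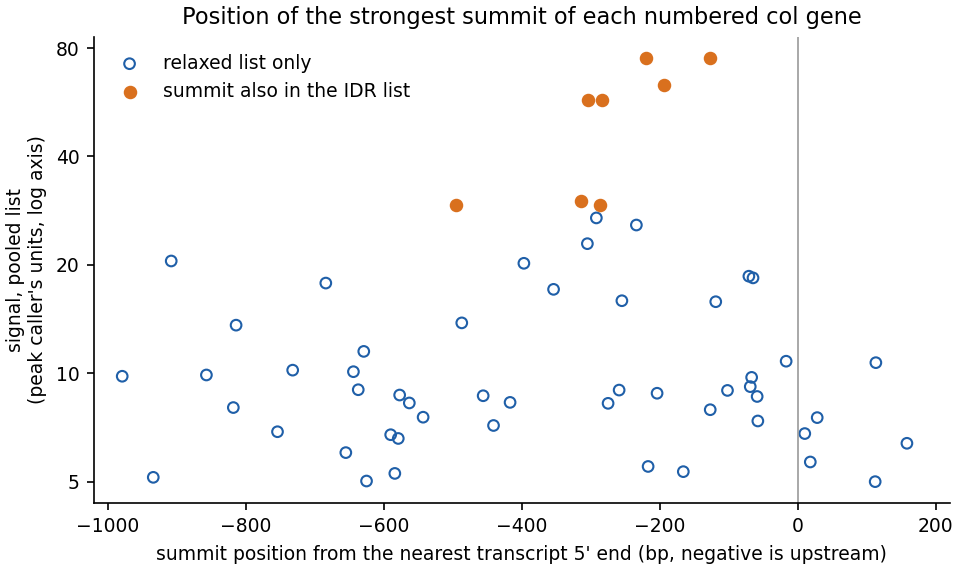
Position of the strongest pooled relaxed summit from the nearest annotated 5′ end (horizontal, bp, negative is upstream) and its signal (vertical, peak caller's units, log scale) for 59 numbered col genes. The 8 filled points, whose summit is in the IDR list, lie at −495 to −128 bp, while the open points cover the whole window.

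A few of the peaks lay in the windows of more than 1 gene. Of the 7 IDR peaks at members, 2 did (28.6%), against 18.4% of the 630 IDR peaks that lay only in windows of other genes. col-117 and col-3 are transcribed away from each other from a gap of 587 bp, and their peak lay 284 bp from the 5′ end of col-117 and 304 bp from that of col-3. The data cannot assign it to either gene. The col-62 peak also lay in the window of C15A11.7, transcribed the other way. Among 71 pooled relaxed peaks at members, 16 were shared with another gene (22.5%), against 14.4% of 9772 pooled peaks in windows of other genes only, and the col-117 and col-3 peak was the 1 shared by 2 members. The others included the col-2 peak, shared with the kinetochore gene ndc-80, and the col-38 peak, shared with the ribosomal protein gene rpl-5.

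Some numbered col genes lie in runs of neighbours. Linking members less than 5000 bp apart gave 21 clusters with 50 genes. In these, 3 genes were occupied, namely col-117 and col-3, and col-62, which neighbours col-7, and outside them 5 of 106 were, which puts both groups of members near the 5.13% of the family. A pooled relaxed summit was found at 14 of the 50 clustered genes (28.0%) and at 45 of the other members (42.5%). Of other protein-coding genes 42.3% had one, near the share of members outside clusters, and 3.60% were occupied. The difference between clustered and other members was not tested. The largest cluster, col-167 to col-171 on the X chromosome, held 5 genes and no pooled summit. The pair col-13 and col-12 had none, and in the cluster of col-144, col-145 and col-10 the strongest signal was that of col-10.

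Few member windows held a near-identical stretch, where short reads can be hard to place. The windows of other genes were not searched for copies. With at least 95% identity over at least 300 bp as the rule, 4 members had a copy of part of their window elsewhere: col-52, col-56, col-62 and col-126. The 481 bp stretch of col-62 matched sequence at col-7 with 96.9% identity, but the summit of col-62 lay outside it. The copy of the col-126 window, 373 bp at 100% identity, lies at its neighbour col-127. The labels do not say how the submitters treated reads with several matches.

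By chromosome, 4 of 41 members on IV were occupied (9.76%), against 2.84% of other protein-coding genes there. On II 2 of 24 were occupied (8.33%, others 3.50%), on I 1 of 21 (4.76%, others 3.96%) and on X 1 of 27 (3.70%, others 5.47%). None of 31 members on V (others 2.60%) or of 12 on III (others 3.81%) was occupied. The 4 on IV include col-117 and col-3, which share 1 peak, and each share rests on 4 genes or fewer.

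IDR peaks also lay near members outside the promoter window. For 13 of 148 unoccupied members (8.78%) the nearest IDR summit was within 5000 bp of a 5′ end, close to the 8.54% of unoccupied other protein-coding genes. In col-85 a peak with a signal of 29.6 lay in an intron of the gene itself (II, 12494588 to 12494937), 332 bp downstream of the 5′ end. In col-99, the membrane collagen gene, a peak of 36.3 lay in an intron 3804 bp downstream (IV, 143940 to 144289), with 1 GATA site within 100 bp. A second peak, of 44.1, lay 2054 bp upstream of col-99 (IV, 149798 to 150147, intergenic). A peak of 133 lay 1964 bp downstream of the 5′ end of col-83 (II, 11043936 to 11044094), between genes. Several of the 13 nearest summits lay in the windows of other genes, such as C34D4.2 near col-113 and C12D8.9 near col-148.

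With the window set above, the numbered col genes as a family stood close to the background. The occupied share was 5.13% (8 of 156, 95% Wilson interval 2.62 to 9.79%) against 3.60% of other protein-coding genes (714 of 19829), and the interval spans the latter. With 500 bp upstream to 100 bp downstream the members' share was the same, and that of others was 2.52%, below the interval. With 2000 bp upstream the shares were 5.77% and 5.10%. The interval covers counting error only, since genes are not replicates of a condition. In the pooled relaxed list 59 members (37.8%, 30.6 to 45.6%) had a promoter summit, against 42.3% of other genes. The shares were 35.9% and 42.3% for replicate 1, and 32.7% and 37.9% for replicate 2. A summit in the pool and in both replicates was found at 27 members (17.3%) and at 20.7% of other genes.

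The order of the shares depended on how deep the list was read. Among the strongest 500 pooled peaks 5 members (3.21%) and 1.19% of other genes had a summit. Among the strongest 3000 the shares were 10.3% (16 members) and 7.89%, and among the strongest 10000 they were 17.9% (28 members) and 20.6%. Other genes have wider windows on average, 1461 bp against 1266 bp; 136 of 156 members have 1 annotated 5′ end. Among genes with 1 annotated 5′ end, an alternative chosen after seeing the data, 8 of 136 members (5.88%) and 2.98% of others were occupied. There the relaxed shares were 39.0% and 36.2%, the reverse of their order over all genes. No test was made of these differences, which all rest on 2 libraries of 1 group.

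**Figure D4:**
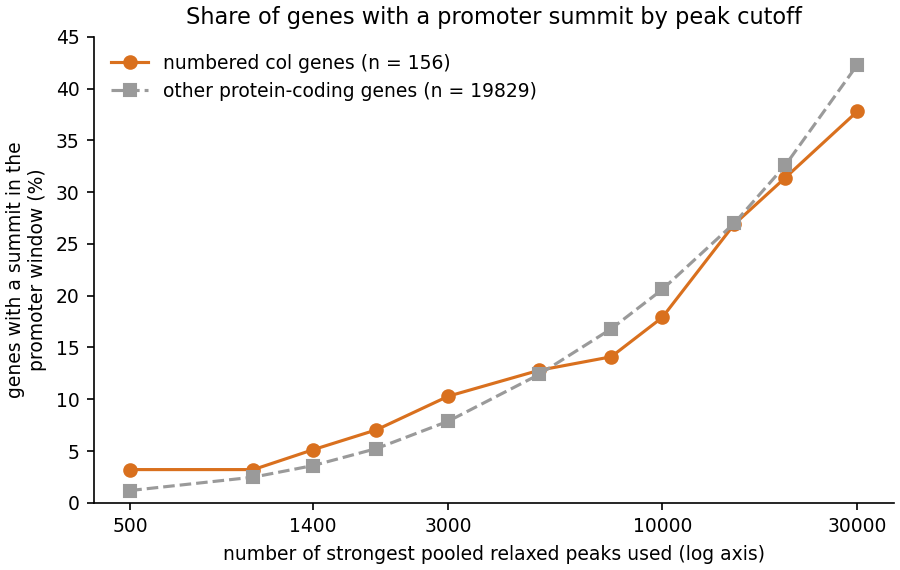
Share of genes with a summit in the promoter window (vertical, %) when the strongest pooled relaxed peaks are used up to the number on the horizontal axis (log scale), for 156 numbered col genes (circles) and 19829 other protein-coding genes (squares). The member line is above the other at 500 peaks (3.21% and 1.19%), the lines cross between 5000 and 7500, and at 30000 the member line is below (37.8% and 42.3%).

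GATA sites in the reference sequence were denser before numbered col genes than before other genes. In the 500 bp before the most upstream 5′ end, 133 of 156 members (85.3%) had at least 1 of the 4 sites, with 3.91 sites per kb, against 71.3% and 2.74 sites per kb for other genes. The difference was widest from −500 to −251 bp, where the densities were 3.77 and 2.49 sites per kb. From −250 to −1 bp they were 3.92 and 2.93. Further upstream they were 2.56 and 2.43 from −750 to −501 bp, and 2.82 and 2.46 from −1000 to −751 bp. In the 200 bp after the 5′ end members had fewer, 1.98 against 2.30. The G and C content of the 500 bp was 35.7% for members and 34.1% for others. Over the whole promoter window almost every gene had a site, 98.1% of members and 94.5% of others, and AGATAA was present in 62.2% and 59.9%. The shares were 38.5% and 32.1% for AGATAG, 78.2% and 75.5% for TGATAA, 49.4% and 42.2% for TGATAG, and 37.8% and 47.6% for CGATAA.

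Nearly every member window holds a site, so its presence there cannot separate occupied from unoccupied members. The median number of sites in the window was 3.5 for the 8 occupied members and 4 for the 148 others. col-107, the member with the strongest peak, had 1 site in its window, while col-64 had 10 and no pooled relaxed summit. col-52 also had 10 and no such summit, but it has 2 annotated 5′ ends and so a wider window. Part of the col-52 window also has a near-identical copy. In the 500 bp upstream, sites were as dense before the 59 members with a pooled relaxed summit as before the 97 without, at 3.93 and 3.90 per kb, while at least 1 site was present in 91.5% and 81.4%. For other genes with and without a pooled relaxed summit these shares were 70.9% and 71.5%. A match is only a run of letters and does not show binding. No GATA site was found in the windows of col-33, col-46 and col-98.

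**Figure D5:**
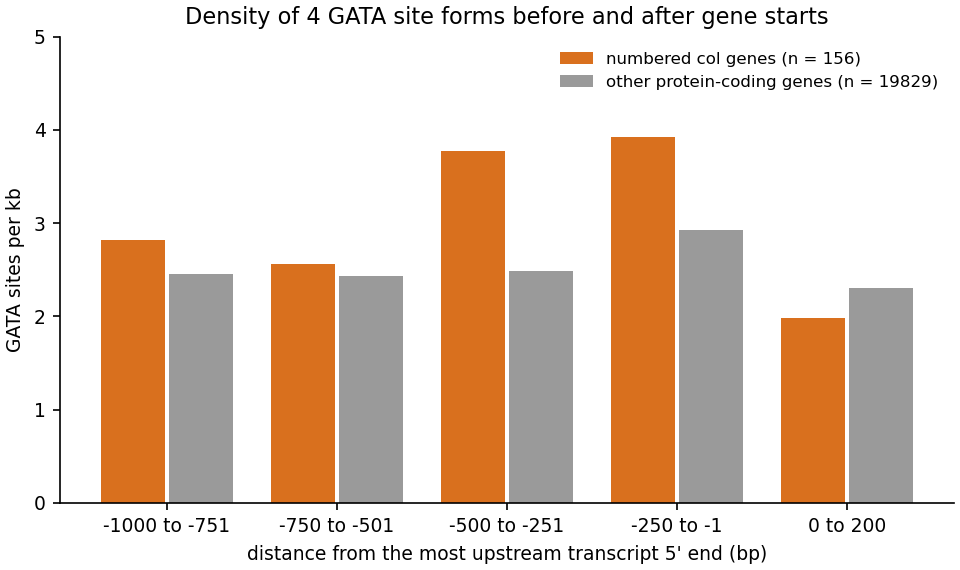
Density of the 4 forms of GATA site on either strand (vertical, sites per kb) in 5 intervals around the most upstream 5′ end (horizontal, bp) for 156 numbered col genes and 19829 other protein-coding genes. The member bars stand out from −500 to −251 bp (3.77 against 2.49) and from −250 to −1 bp (3.92 against 2.93).

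At the summits themselves, 6 of the 7 IDR peaks at members had a GATA site within 100 bp, against 372 of the 630 other promoter peaks. The exception was col-174. AGATAA was found at 3 of the 7 (37.1% of other promoter peaks) and TGATAA at 3 (22.1%). The longer AGATAAGA, found at 8.89% of other promoter peaks, occurred at 1 member peak, that of col-62. GAGAGA occurred at 3 of 7 (34.6% of others) and CGTCTC at 1 (18.1%), both motifs picked because an earlier analysis of these peaks had named them. With 7 peaks these shares are counts of a few genes each.

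Other genes of the collagen pathway were set beside the numbered family. Of 20 cuticle collagen genes named for body shape or blistering (21 were listed and ram-4 was not matched), 8 were occupied and 17 had a pooled relaxed summit. They were dpy-14 with a signal of 155, dpy-3 with 112, dpy-17 with 92.4, dpy-7 with 71.0, dpy-10 with 60.5, sqt-3 with 49.2, lon-3 with 43.6 and dpy-2 with 29.4. The collagens of dpy-2, dpy-3, dpy-7 and dpy-10 act together in the annular furrows of the cuticle. Those of dpy-8 and dpy-9 belong to the same group, and these listed genes were not occupied. The strongest numbered member, col-107 at 75.1, lay below dpy-14, dpy-3 and dpy-17. These genes carry names taken from mutants with a changed body. The list was drawn up with earlier results in view, so its 8 of 20 beside the 8 of 156 numbered genes is a description.

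Of 14 genes listed for collagen modification and processing, none was occupied, and 8 (57.1%) had a pooled relaxed summit. Of all protein-coding genes outside the numbered family, 3.60% were occupied and 42.3% had such a summit. Among these 14 are dpy-18 and phy-2, subunits of prolyl 4-hydroxylase, bli-4, a furin-like protease, and dpy-31, an astacin protease that trims procollagen. Of the basement membrane collagens emb-9, let-2 and cle-1, none was occupied and 1 had a pooled relaxed summit. Lists of 14 and 3 genes are too short to show a share below 3.60%.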

How the data were processed

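ELT-1 ChIP-seq peak lists of 2 biological replicates of 1 group were used as the authors deposited them, in narrowPeak format on ce11. Column 7 of the deposited lists is a peak signal with no stated scale between lists, and column 9 a −log10 q-value, which the authors' caller gave and which was not used to rank peaks. Per the notes deposited beside each sample, a relaxed list was derived from the alignments of 1 or both replicates and 1 further file common to all, and the IDR list from the 3 relaxed lists. The aligner, the peak caller, the IDR threshold and read depths are not given in the sources used here. Lists on ce10 were not used here. All ce11 peaks ended within the WBcel235 chromosomes.

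Windows were set by the Ensembl release 115 annotation, and motifs were searched on both strands within 100 bp of summits. Copies of windows were sought with BLAST 2.17.0. Counting was tested on simulated data, where all 30 planted summits were recovered. The scripts ran in Python 3.11.15 with SciPy 1.17.1, matplotlib 3.10.9, pandas 2.3.3 and numpy 2.4.6. Intervals are 95% Wilson intervals. No test was made, since 1 group gives no contrast between samples. The genes named were every occupied member and its sharing genes, the next 12 by pooled signal, col-10, col-12, col-19 and the occupied genes of the related lists; other genes were named after their values were seen. Members and lists were chosen with earlier results of these data known. Alternatives covered the window, the 5′ ends, the overlap rule, gene assignment, peak cutoffs, motifs, copies and each replicate alone.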

Additional observations from a re-analysis of the deposited data

How the results depend on the processing

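Of the alternative values, 36 stayed close to the reported value (within 1.5 times for a count, within its Wilson interval for a share) and 23 moved. The count of 8 occupied members became 5 with the strongest 50% of IDR peaks, when col-174, col-62 and col-76 dropped out, and ran from 6 to 9 in the other alternatives. With the nearest 5′ end only, col-3 and col-62 lost the shared peaks. The share of other genes occupied was 2.52% with 500 bp upstream to 100 bp downstream, 5.10% with 2000 bp upstream, 3.14% with the most upstream 5′ end, 3.94% with any overlap, 3.02% with the nearest 5′ end, 1.73% with the strongest 50% of peaks and 2.98% for genes with 1 5′ end. The members' share stayed above it in each of these. For pooled relaxed summits the members' count was 38 with the narrow window, and the share of other genes was 29.9%, 55.5%, 38.9%, 47.1%, 37.4%, 27.0% and 36.2% under the same settings in the same order. Members stayed below it except for genes with 1 5′ end.

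An IDR list needs both replicates, so for each replicate alone the strongest 1400 peaks of its relaxed list stood in for it. These settings therefore do not measure reproducible occupancy. Without replicate 1 or 2, 7 to 8 members were occupied (3.49 to 3.58% of other genes), 51 to 56 had a relaxed summit (37.9 to 42.3% of other genes), 5 to 6 member peaks had a GATA site and 1 to 2 were shared. The relaxed lists named partly different members: of the 59, 34 had a summit without replicate 1 and 44 without replicate 2. Without replicate 1, col-62 was lost and col-185 gained, and without replicate 2, col-76 was lost. With AGATAA only, 3 member peaks had a site. Shared peaks numbered 1 with the strongest 50% and 4 with 2000 bp upstream. Member windows with a site came to 62.2% both with a window of −250 to +50 bp and with AGATAA only, where other genes were at 60.0% and 59.9%. The genes with 1 5′ end were added after the data were seen. No paired analysis was possible because the series has 1 group. Unknown depth limits what absence of a summit means.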
